A study of Solanum tuberosum with 12 samples.

Results

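The comparison of light-emitting diodes (LEDs) with darkness covers 6 of the 12 RNA sequencing libraries of potato (Solanum tuberosum) shoot tips in this study, 3 from cryopreserved tips recovering under LEDs and 3 from cryopreserved tips kept in darkness. The libraries were chosen by their labels alone, and of the 39027 genes in the count tables the 19920 that passed a filter on low counts were compared. All tips came from in vitro plants of the genotype Agrie Dzeltenie that were 3.5 weeks old and had grown under cool white fluorescent tubes. Both groups were treated with 10% dimethyl sulfoxide (DMSO) and 30% sucrose for 2 h, frozen in droplets in liquid nitrogen, held there for 1 h and rewarmed. They then spent 48 h in darkness on a medium with zeatin riboside, gibberellic acid and indole acetic acid. Only the last 16 h differed. The LED group received 90% red and 10% blue light with an intensity of 40 µmol m-2 s-1, while the dark group stayed without light. Each library pooled 10 tips, and the labels call the 3 libraries of a group biological replicates. The remaining libraries, used here for reference, came from cryopreserved tips given cool white light at the same intensity for the same 16 h (n = 3) and from tips that were never frozen and were kept under cool white light (n = 3). In these pooled tips a change in the number of cells of a type and a change in RNA per cell cannot be told apart.

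Plants read red light with phytochromes and blue light with cryptochromes and phototropins. In darkness, phytochrome-interacting transcription factors and the COP1 ubiquitin ligase hold back the genes of the light programme, among them those for chlorophyll synthesis and the photosynthetic apparatus, while genes of dark growth and of sugar starvation are active. Light reverses this within hours by removing these repressors and letting factors such as HY5 accumulate. Red and blue LEDs are used in tissue culture because chlorophyll and the photoreceptors absorb mainly in these bands. The deposited files name genes only by identifiers that start with PGSC0003DMG, and 0 of them matched the gene table used here, so these known gene classes could not be looked up, the 18 gene lists drawn up for this tissue had no matched member, and the tissue label could not be checked against markers. Genes are described below by level, by size of change and by their values in the other libraries.

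The LED libraries held 6524085 to 10572258 counted reads and the dark libraries 6836559 to 7894692. At an equal depth of 6342324 reads, the total of the smallest of the 12 libraries, 23591 to 23750 genes had a read under LEDs and 23287 to 23440 in darkness. The groups did not overlap in this count, and the two-sided exact permutation p of 0.1 is the smallest that 3 against 3 libraries allow. The share of reads taken by a library's 10 most abundant genes was 6.24% to 6.62% under LEDs and 5.72% to 8.00% in darkness, with an exact permutation p of 0.4.

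After 16 h of LED light more genes were higher than lower relative to continued darkness, and the increases were larger than the decreases. Of the genes tested, 1429 were higher and 689 lower under LEDs than in darkness at an adjusted p under 0.05, which is 7.17% and 3.46% of all genes tested, or 10.6% together. Among the higher genes, the median log2 fold change was 1.02, and 731 of them (51.2%, or 3.67% of all genes tested) differed at least 2-fold, 216 at least 4-fold, 70 at least 8-fold and 32 at least 16-fold. Among the lower genes, the median log2 fold change was -0.57, and 138 (20%, or 0.693% of all genes tested) differed at least 2-fold, 18 at least 4-fold, 3 at least 8-fold and 0 at least 16-fold. When the test itself asked for a change of more than 2-fold, with edgeR's glmTreat, 137 genes (0.688% of those tested) were higher and 2 (0.01%) were lower. Library-size scaling without TMM factors gave 1789 higher and 477 lower genes, so 78.9% of the calls were increases in place of 67.5%.

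**Figure D1:**
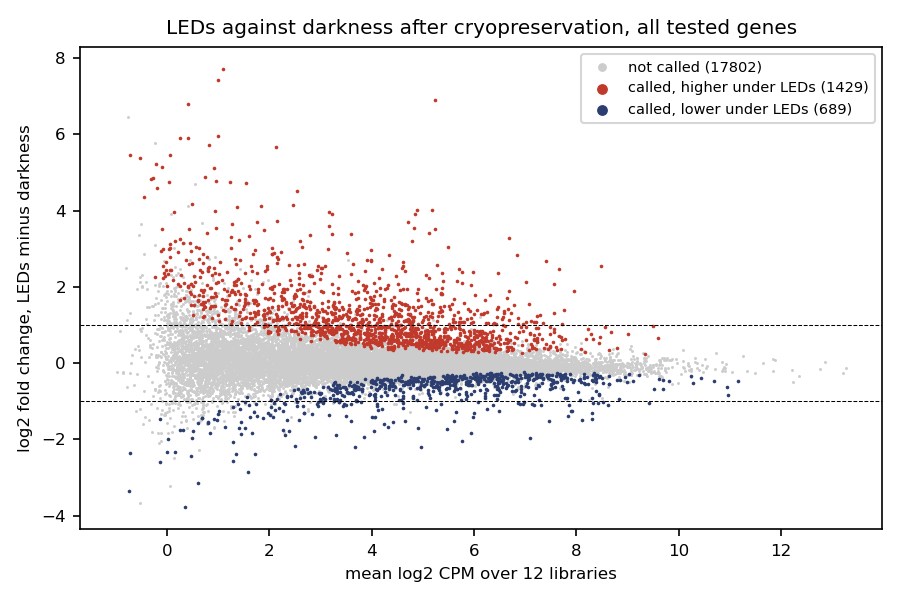
Log2 fold change of LEDs minus darkness (vertical axis) against the mean log2 CPM over all 12 libraries (horizontal axis) for 19920 genes, 1 point per gene; dashed lines mark 2-fold. The 1429 called increases reach a log2 fold change of 7.72 and the 689 called decreases reach -3.78, and the decreases are concentrated at higher levels and small changes.

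Over all called genes, increases and decreases came from different ranges of expression, with a median mean log2 CPM of 4.09 and 5.48. This did not hold for the larger changes. The 731 genes at least 2-fold higher and the 138 at least 2-fold lower had medians of 2.94 and 2.95. Levels are in CPM, counts scaled to the size of each library and corrected with TMM factors. The genes that were higher under LEDs had a median level of 9.44 CPM in darkness and 20.0 CPM under LEDs, close to the median of all tested genes under LEDs, 16.9 CPM. The genes that were lower under LEDs were more abundant, with a median of 59.5 CPM in darkness and 40.8 CPM under LEDs. When the tested genes were ordered by mean log2 CPM and cut into 5 level classes of 3984 genes each, the lowest class held 228 higher and 46 lower genes. The middle class held 331 higher and 111 lower genes. In the highest class the balance turned, with 243 higher and 302 lower genes, except under library-size scaling, where it was 317 higher and 191 lower. The scalings by DESeq2 size factors and by upper quartiles kept the turn, with 234 and 244 higher against 327 and 302 lower genes in that class.

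The precision of the counts changed along the same range. The median standard error of the log2 fold change was 0.417 in the lowest class and 0.0996 in the highest. In the lowest class 98.7% of the called increases and 97.8% of the called decreases were at least 2-fold, and smaller differences were rarely detectable at that depth. In the highest class these shares were 26.3% and 9.6%, and the median absolute log2 fold change of a called gene was 0.53. Of the 17802 genes that were not called, 14057 (79%) had a 95% interval that lay within 2-fold in either direction, while for the other 3745 the interval reached past 2-fold, so that their depth and spread leave a change of that size undecided.

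**Figure D2:**
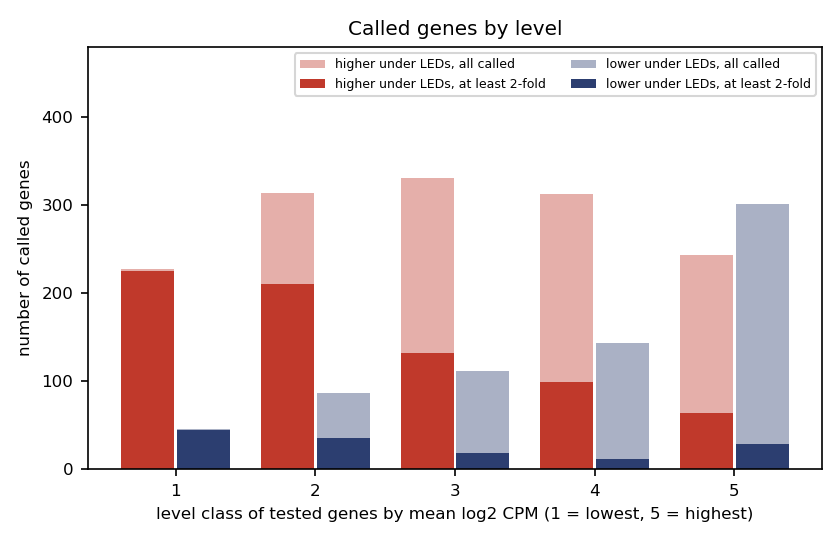
Number of called genes (vertical axis) in 5 equal level classes of the tested genes ordered by mean log2 CPM (horizontal axis), higher under LEDs in red and lower in blue; the full bar counts all called genes and the solid part those at least 2-fold. Higher genes outnumber lower ones in classes 1 to 4, by 228 to 46 in the lowest, and lower genes lead by 302 to 243 in the highest.

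Most genes with the largest fold changes were nearly silent in darkness, where few reads make a large ratio easier to reach. The 32 genes at least 16-fold higher under LEDs had a median of 0.0466 CPM in darkness and 2.44 CPM under LEDs, and 26 of them had fewer than 10 reads in the 3 dark libraries together. For these the size of the fold change depends on very few dark reads. The other 6 libraries entered the fit through the filter, the scaling and the estimate of spread but not the contrast. There the median level of the 32 genes was 3.50 CPM with cool white light after cryopreservation and 3.06 CPM in tips that were never frozen. The lowest of the 32 had 0.554 CPM under LEDs, and a gene that low could pass the filter only through these other 6 libraries. Both medians are therefore partly set by the filter. The called increases include 9 genes with no read in any dark library. Among all 39027 genes, 111 had no read in darkness and reads in every LED library, and 43 had the opposite pattern. Only 8 of the 111 had enough reads to be tested, and 0 of the 43, so the latter could not be called. All 8 were called, which was nearly fixed by asking for 0 dark reads and enough reads elsewhere to pass the filter. Their LED means were between 3.97-fold and 23.7-fold above 0.139 CPM, the level that 3 reads over the dark group would give. These ratios take the observed LED means as exact, so they are not lower bounds on the change. The median gene of the 111 had 7 reads over the 3 LED libraries, and the median gene of the 43 had 5 reads over the 3 dark libraries.

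A smaller set combined a large change with a high level. A total of 35 genes were at least 2-fold higher under LEDs with a mean of at least 100 CPM there, and 9 of these were at least 4-fold higher. The 35 had a median of 155 CPM under LEDs, 58.7 CPM in darkness, 191 CPM with cool white light after cryopreservation and 163 CPM in tips that were never frozen. On the other side, 33 genes were at least 2-fold lower under LEDs with at least 100 CPM in darkness, with medians of 117 CPM under LEDs, 251 CPM in darkness, 161 CPM under cool white light after cryopreservation and 62.6 CPM without cryopreservation. In both sets every gene had LED and dark libraries that lay apart, close to the 96.9% of all called increases and 97.5% of all called decreases. Over all tested genes, the LED libraries lay wholly above the dark libraries for 14.9% and wholly below them for 12.3%, and the calls were made on the same libraries.

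Given in full here are 4 genes, the 2 increases and the 2 decreases with the largest difference in mean CPM among called genes whose LED and dark libraries did not overlap. The files do not say what they encode. PGSC0003DMG400021499 stood at 1303, 1387 and 1437 CPM in LED replicates 1 to 3, and at 609, 838 and 643 CPM in the dark replicates. Every LED library was above every dark library, at 1376 ± 67.5 against 697 ± 124 CPM (SD, n = 3). Cool white light did not give this level, with 708, 636 and 721 CPM in the 3 cryopreserved libraries, which lie within the range of the dark libraries, and 312, 701 and 358 CPM were found without cryopreservation.

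PGSC0003DMG400019584 stood at 532, 604 and 374 CPM in LED replicates 1 to 3, and at 69.0, 92.4 and 97.4 CPM in the dark replicates. The lowest LED library, replicate 3, was still far above the highest dark library, and the means were 504 ± 118 and 86.3 ± 15.2 CPM (SD, n = 3), a 5.84-fold difference. Under cool white light the 3 cryopreserved libraries held 743, 772 and 783 CPM, above all LED libraries, and tips that were never frozen held 533, 473 and 492 CPM.

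PGSC0003DMG401025083 was the 15th most abundant tested gene. It stood at 1387, 2538 and 3193 CPM in LED replicates 1 to 3, and at 3992, 4199 and 4413 CPM in the dark replicates. The dark libraries were all higher and close together, while LED replicate 1 was at less than the level of either other LED library. Cool white light after cryopreservation gave 2398, 2630 and 2349 CPM, and the never-frozen libraries were the lowest, at 722, 700 and 618 CPM.

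PGSC0003DMG400030771 stood at 1298, 1878 and 2053 CPM in LED replicates 1 to 3, and at 2492, 2342 and 3193 CPM in the dark replicates. LED replicate 3 and dark replicate 2 came nearest to each other. Cool white libraries after cryopreservation held 2194, 2385 and 2549 CPM, which overlaps the dark libraries, and never-frozen tips held 1721, 1107 and 1492 CPM.

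**Figure D3:**
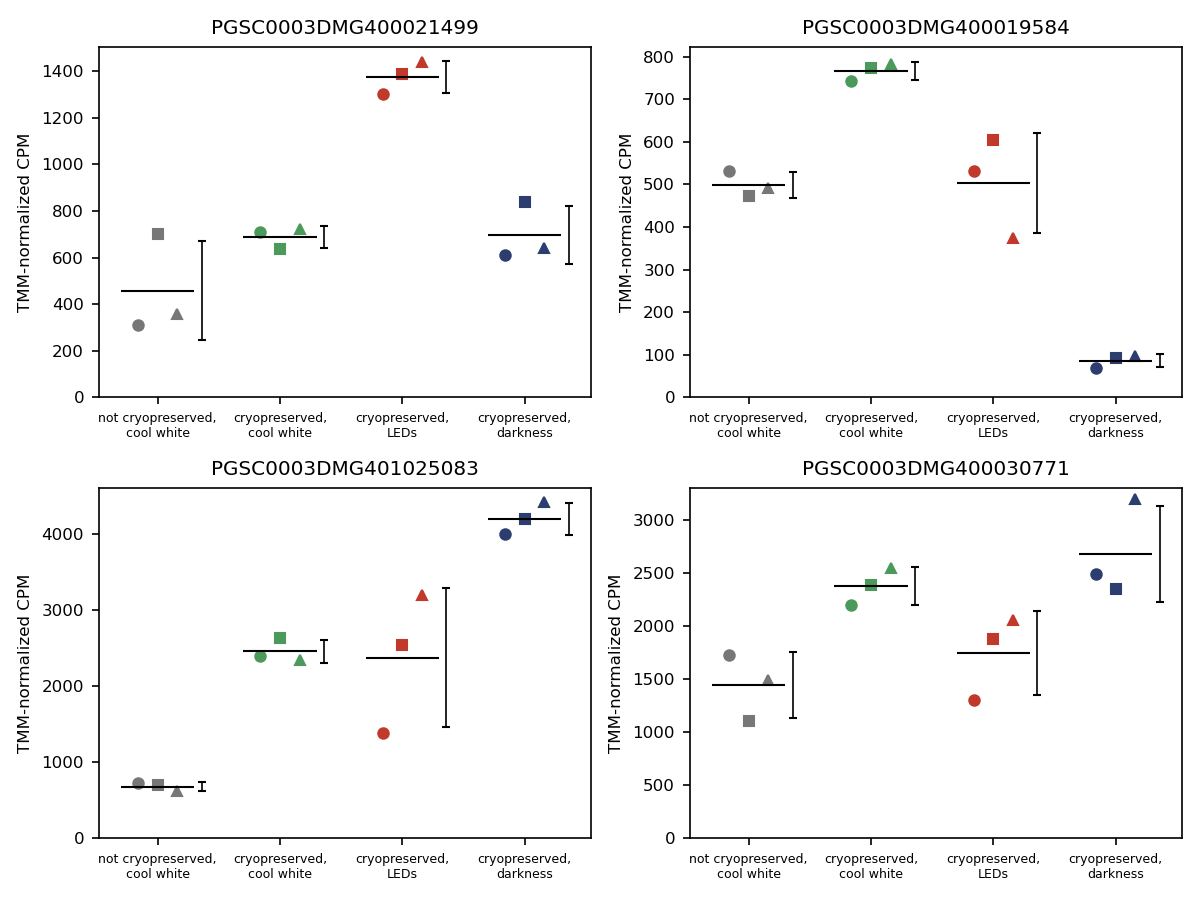
TMM-normalized CPM (vertical axes, from 0) of 4 genes in each of 12 libraries by group (horizontal axes); circles, squares and triangles are replicates 1, 2 and 3, lines are means and the bars beside them show the SD over 3 libraries. LED and dark libraries are apart in all 4 panels. The cool white libraries after cryopreservation lie with darkness for PGSC0003DMG400021499 and above the LED libraries for PGSC0003DMG400019584.

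In edgeR's quasi-likelihood test, with p-values adjusted after Benjamini and Hochberg, PGSC0003DMG400019584 differed between LEDs and darkness by 2.55 on the log2 scale (SE 0.16, adjusted p 5.13e-07) and PGSC0003DMG400021499 by 0.98 (SE 0.23, adjusted p 0.0136). The same test gave -0.82 (SE 0.20, adjusted p 0.0201) for PGSC0003DMG401025083 and -0.62 (SE 0.18, adjusted p 0.0423) for PGSC0003DMG400030771. The call of PGSC0003DMG400019584 held under all 23 alternatives, with edgeR, DESeq2 or limma adjusted p up to 0.000290. The call of PGSC0003DMG400021499 was lost under 3 of the 23, without dark replicate 1 or 3 (adjusted p 0.0642 and 0.0598) and in the test against 2-fold. That of PGSC0003DMG401025083 was lost under 5, among them the fit of 6 libraries (adjusted p 0.0908) and the fits without LED replicate 2 or dark replicate 2 or 3 (0.0522, 0.0562 and 0.0662). That of PGSC0003DMG400030771 was lost under 11, which include leaving out any single library of the LED and dark groups except LED replicate 3, with adjusted p between 0.0527 and 0.174. The difference between both lights was tested in the same edgeR fit. It was 1.00 (SE 0.23, adjusted p 0.0475) for PGSC0003DMG400021499, and -0.61 (SE 0.15, adjusted p 0.0638) for PGSC0003DMG400019584, with adjusted p of 0.935 and 0.218 for the other 2. The call of PGSC0003DMG400021499 between the lights was lost with library-size scaling (adjusted p 0.0521), with the replicate block (0.0519) and without any single LED or cryopreserved cool white library (0.0563 to 0.201).

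How the genes that responded to LEDs behaved in the other libraries was read from their share of all reads. The 1429 higher genes took 6.43%, 6.22% and 5.03% of reads in LED replicates 1 to 3 and 3.04%, 3.23% and 3.11% in the dark replicates, values on which the genes were chosen. In the libraries outside the contrast they took 6.43%, 6.50% and 6.57% in cryopreserved tips under cool white light and 5.71%, 6.14% and 5.54% in tips that were never frozen. All 6 of these libraries were above every dark library and in the range of the LED libraries or just above it. The genes were chosen as low in these same dark libraries, so the choice itself favours a place above darkness. The 928 higher genes called without these 6 libraries took 4.84% to 4.91% under cool white light, 3.88% to 4.45% without cryopreservation, 3.73% to 4.76% under LEDs and 2.06% to 2.19% in darkness. They too were chosen on the LED and dark libraries.

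The 689 lower genes took 5.93%, 6.43% and 6.82% of reads in LED replicates 1 to 3 and 9.13%, 8.97% and 9.80% in the dark replicates. Cryopreserved tips under cool white light held 7.50%, 7.49% and 7.52%, between both groups, and never-frozen tips held 6.51%, 6.11% and 6.44%, within the LED range. These genes were chosen as high in the dark libraries, which favours a place below darkness. The sum of the CPM differences over the 1429 higher genes was 25848 and over the 689 lower genes -32822. As plain shares of reads the higher genes averaged 5.89% under LEDs and 3.13% in darkness and the lower genes 6.39% and 9.30%, and for the genes called by the fit of only the 6 libraries the order of these changes was the other way, 4.38% and 2.12% against 3.08% and 4.85%. The 10 lower genes with the largest differences made up 22.2% of their sum, and the 10 higher genes 12.4% of theirs.

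**Figure D4:**
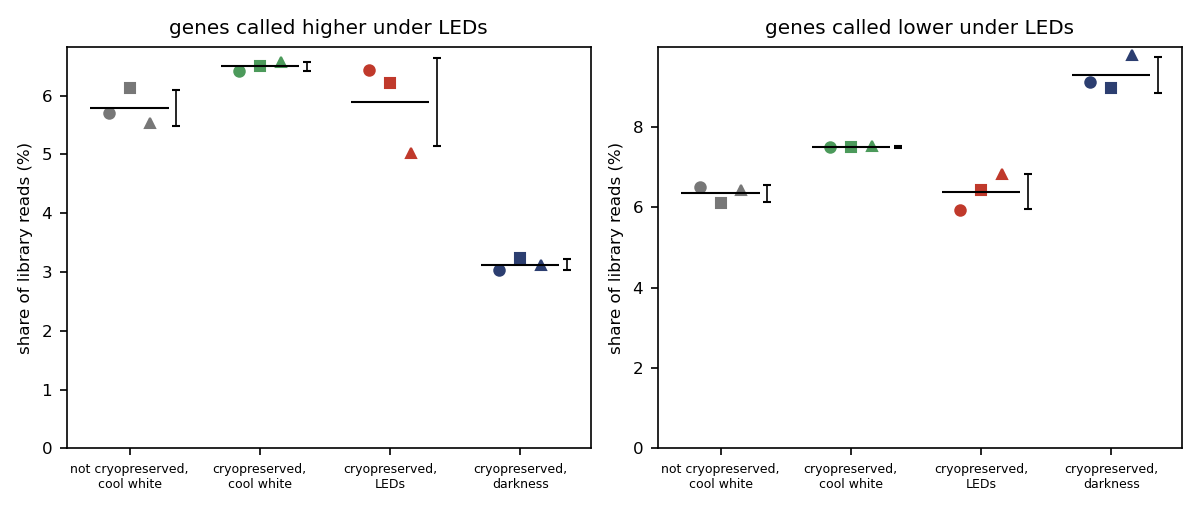
Share of all counted reads (vertical axes, percent, from 0) taken by the 1429 genes called higher (left) and the 689 called lower (right) under LEDs, in each of 12 libraries by group (horizontal axes), with means and SD over 3 libraries; circles, squares and triangles are replicates 1, 2 and 3. The higher genes take 3.04% to 3.23% in darkness and at least 5.03% in every other library, and the lower genes take 8.97% to 9.80% in darkness and at most 7.52% elsewhere. Both sets were chosen on the LED and dark libraries.

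The difference between cryopreserved and never-frozen tips under cool white light can be set beside these genes without sharing a library. The labels give DMSO, sucrose, the hormones and the 48 h of darkness only for cryopreserved tips. Freezing therefore cannot be told apart from these steps, and "after cryopreservation" stands for all of them. Over all tested genes, 27.8% were higher and 21.5% lower after cryopreservation, with a median log2 fold change of 0.05. Of the 1429 genes higher under LEDs, 359 (25.1%) were higher and 244 (17.1%) lower after cryopreservation, with a median of 0.05. This balance moved with the scaling. For this, the genes higher under LEDs were called anew under each scaling, so the sets differ in size. Under DESeq2 size factors 311 of 1383 genes were higher and 274 lower. Under upper quartile factors these were 302 and 312 of 1429, and under library-size scaling 489 and 272 of 1789. The shares over all tested genes given here are those with TMM factors. Of the 689 genes lower under LEDs, 284 (41.2%) were higher and 159 (23.1%) lower, with a median of 0.16. The lower genes called anew under DESeq2 size factors, upper quartile factors and library-size scaling numbered 739, 682 and 477. Of these, 269, 259 and 216 were higher and 195, 190 and 88 lower after cryopreservation. Of the 138 that were at least 2-fold lower under LEDs, 59 were higher and 20 lower after cryopreservation, with a median of 0.43. Among the 33 abundant genes that were at least 2-fold lower under LEDs, 25 were higher and 1 lower. These 33 were chosen for at least 100 CPM in cryopreserved tips in darkness, a choice that itself favours genes raised after cryopreservation. No share over equally abundant tested genes was taken, so the 25 and 1 are a description. PGSC0003DMG401025083, which was lower under LEDs, was higher by 1.85 on the log2 scale (SE 0.21, adjusted p 9.85e-06 in the same edgeR fit) in cryopreserved than in never-frozen tips under cool white light. The 689 genes are more abundant than the tested genes as a whole, and the part of that in these shares was not tested.

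Few genes of any kind were called between the lights. Between LEDs and cool white light after cryopreservation, 0.377% of all tested genes were higher and 1.06% lower under LEDs. Of the 1429 genes higher under LEDs than in darkness, 14 (0.98%) were also higher and 55 (3.85%) lower under LEDs than under cool white light. Of the 689 lower genes, 5 (0.726%) were higher and 30 (4.35%) lower. These counts share the LED libraries with the comparison that chose the genes. They were also taken anew under DESeq2 size factors, upper quartile factors and library-size scaling. The 14 became 16, 15 and 13 and the 55 became 46, 46 and 75. The 30 became 24, 24 and 37. The next sets compare LEDs with darkness and cool white light after cryopreservation, and never-frozen tips had no part in the choice. The 14 genes highest under LEDs had a median of 61.3 CPM under LEDs, 43.9 CPM in darkness, 43.1 CPM in cool white light and 39.7 CPM without cryopreservation. PGSC0003DMG400021499, whose call between the lights rests on every single LED and cryopreserved cool white library, is among these 14. The 30 genes lowest under LEDs had medians of 19.0 CPM under LEDs, 33.7 CPM in darkness, 32.6 CPM in cool white light and 23.8 CPM without cryopreservation. The 55 genes higher under LEDs than in darkness but lower than under cool white light had medians of 27.2, 8.00, 41.2 and 42.4 CPM in that order. The comparisons of cool white light and of LEDs with darkness share the dark libraries. Set side by side, the 1429 higher genes had a median log2 fold change against darkness of 1.13 in cool white light and 1.02 in LED light, and the 689 lower genes of -0.36 and -0.57. Whether these medians differ between the lights was not tested. LED replicate 3 held a smaller share of reads in the 1429 genes (5.03%) than LED replicates 1 and 2 (6.43% and 6.22%).

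The LED libraries differed among themselves more than the dark libraries did, and LED replicate 3 was the nearest to darkness. The first principal component of the 6 libraries held 49.7% of the variance and separated the groups, with the dark libraries between -40.5 and -31.6, LED replicates 1 and 2 at 53.0 and 40.3, and LED replicate 3 at 13.0. Correlations of log2 CPM across genes, which are not independent replicates, were between 0.964 and 0.976 within the LED group and between 0.979 and 0.983 within the dark group. Between LED and dark libraries they were 0.943 to 0.971, a range that overlaps the one within the LED group. The median SD of log2 CPM per gene was 0.202 under LEDs and 0.172 in darkness, against 0.148 under cool white light after cryopreservation, and 370 genes had an SD above 1 under LEDs against 247 in darkness. With every library thinned to the same total, the medians in that order were 0.209, 0.176 and 0.157.

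A comparison of the LED libraries only with one another was added after the data had been seen. It used genes called between cool white light and darkness in a fit of the 9 libraries without LEDs, 12% of the genes tested there higher and 5.98% lower under cool white light. In the 2355 genes higher under cool white light than in darkness, LED replicate 3 lay a median of -0.28 (log2) from the mean of the other LED libraries, and replicates 1 and 2 at 0.185 and 0.125. LED replicate 3 was the lowest LED library for 66.4% of these genes, against 37.5% of all tested genes. In the 1175 genes lower under cool white light the medians of replicates 1, 2 and 3 were -0.002, -0.05 and 0.08. Replicate 3 was the highest for 47.1%, against 33.2% of all tested genes, and replicate 1 for 36.1%, against 38.2%.

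**Figure D5:**
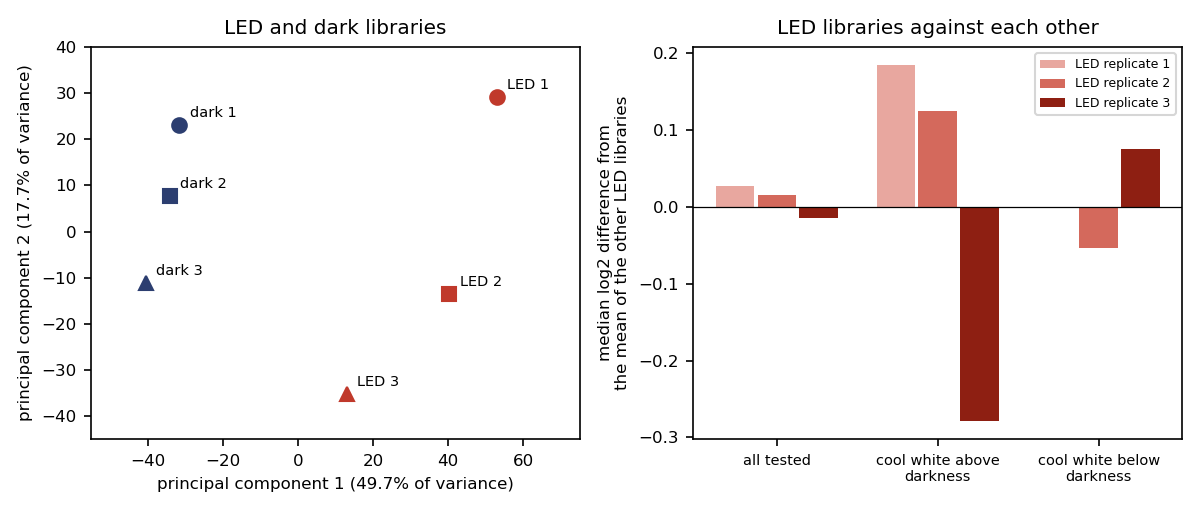
Left, the 6 libraries on the first 2 principal components of log2 CPM, LED in red and dark in blue, with axes giving the share of variance; right, the median log2 difference of each LED library from the mean of the other LED libraries (vertical axis) over all tested genes and over genes called higher or lower under cool white light than in darkness in a fit without LED libraries. LED replicate 3 lies nearest to the dark libraries at 13.0 on the first component and has a median of -0.28 in the genes higher under cool white light.

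The counts of called genes moved with the libraries. Without LED replicate 3, 1929 genes were higher and 1068 lower, and 1340 and 590 of these were among the 1429 and 689. Without LED replicate 1 or 2 there were 989 and 878 higher and 494 and 333 lower genes. Without dark replicate 1, 2 or 3 there were 937, 1036 and 960 higher and 381, 463 and 335 lower genes. A fit of only the 6 LED and dark libraries called 928 higher and 336 lower genes, of which 892 and 327 were among those of the fit of all 12. In the full fit and in all 6 fits that left out an LED or dark library, 716 genes were higher and 213 lower. No gene called in the full fit was called in the opposite direction under any of the 23 alternatives.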

How the data were processed

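RNA of 12 libraries was sequenced from polyadenylated, stranded libraries per the labels' protocols. The authors deposited raw read counts per gene, 1 file per library, without normalization. Per the submitters' processing notes, the tools were TopHat2 2.0.8b with Bowtie 1.1.1, then featureCounts 1.5.0; FastQC 1.11.2 and DESeq2 1.14.1 are listed too. The sources used here do not give the build, annotation, strand setting or handling of multi-mapping reads. Reads of genes that overlap or resemble each other may therefore be split wrongly. Identifiers were looked up in RefSeq's SolTub_3.0 table of 32873 genes with 0 matches.

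In R 4.3.3, edgeR 4.0.16 kept genes by filterByExpr (minimum count 10, minimum total 15), scaled by TMM and fitted glmQLFit to all 12 libraries by group (8 residual degrees of freedom, biological coefficient of variation 13.2%). Tests were two-sided, adjusted by Benjamini-Hochberg over all 19920 genes. Standard errors were derived from each log2 fold change and its F statistic. Log2 CPM used a prior count of 2. Genes with 0 reads were set against a floor of 3 reads over the group, and intervals (95%) and floors on reads cover counting error or replicate spread only. The test was checked on simulated counts. Alternatives used DESeq2 1.42.0 and limma 3.58.1, other scalings, filters and left-out libraries. Replicate pairs differed by more than counting noise (chi-square per degree of freedom 2.94 to 19.3), so each counts as 1. Where replicates of a group do not come from separate cultures, p-values measure only the spread between these libraries. Named genes follow the rule given with them. Members and lists were chosen with earlier results of these data known.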

Additional observations from a re-analysis of the deposited data

Results flagged for a closer look

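PGSC0003DMG400021499 was flagged because its response to light differed between the lights. It was higher under LEDs than under cool white light by a log2 fold change of 1.00 (edgeR's quasi-likelihood test, adjusted p 0.0475), with every LED library (1303 to 1437 CPM) above every cryopreserved cool white library (636 to 721 CPM). Cool white light and darkness differed by -0.02 (adjusted p 0.973). Under 3 scalings other than TMM the adjusted p from edgeR was between 0.0429 and 0.0521, and it was 0.0519 with replicate number as a block. Leaving out any single LED or cryopreserved cool white library ended the call, with adjusted p between 0.0563 and 0.201 and log2 fold changes between 0.94 and 1.04. The groups have 3 libraries, too few for a check of single libraries that stand apart.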

How the results depend on the processing

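The fit of only the 6 libraries called 1264 genes, 928 higher and 336 lower, 90 of them at least 2-fold lower; glmTreat against 2-fold called 139, 137 higher and 2 lower. With 1 of the 12 libraries left out, the number called ranged from 1211 to 2997, higher from 878 to 1929, lower from 333 to 1068, at least 2-fold higher from 533 to 977 and at least 2-fold lower from 88 to 252, with the lowest values without LED replicate 1 or 2 and the highest without LED replicate 3. The other scalings, filters, DESeq2 and both voom fits kept all 5 counts within 1.5 times. With library size only, 88 of the 477 genes called lower under LEDs than in darkness were lower after cryopreservation. For the genes called by the 6-library fit, the higher set took 4.13% of reads without cryopreservation, 4.88% with cool white light after it, 4.38% with LEDs and 2.12% in darkness, and the lower set 3.05%, 3.75%, 3.08% and 4.85%; these sets hold fewer genes. Replicate number as a block gave 1315 higher and 629 lower genes. Same-numbered LED and dark libraries deviated together with correlations of 0.201, 0.00993 and 0.133, so the numbers were not taken as pairs; LED replicate 2 correlated best with another number, and the block ended the call of 0 of the 4 named genes. Thinning changed the 111 and 43 genes with reads on only 1 side to 88 and 47. Depth limits the genes of the lowest level class.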
